A study of Mus musculus with 8 samples.

Results

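The 10 genes described here are 8 CC chemokines listed as drawing monocytes (Ccl2, Ccl7, Ccl12, Ccl8, Ccl3, Ccl4, Ccl9 and Ccl6) and the receptors Ccr2 and Ccr1. They were taken as a list of names, drawn up with earlier results of these data known, and matched to the gene names of the array, on which 11 probes of 56605 carry them, 1 per gene except for 2 of Ccl4. In all, 37008 gene names are on the array. RNA of peritoneal macrophages was measured on 8 one-colour Agilent arrays, 4 from wild-type mice (wt) and 4 from mice lacking Card9 (Card9-/-), the adaptor that links C-type lectin receptors for yeast walls to NF-kB. Mice of both groups had received 1 ml of 3% thioglycolate into the peritoneum, with cells taken 4 days later, and zymosan, a yeast wall preparation, at a dose of 500 mg/kg that acted for 4 h. Mice without zymosan were not analysed here. Cells were kept if they adhered when washed after 3 h. Strain background, age and the deleted part of Card9 are not given in the sources used here. The labels speak of pellets collected from 4 or 5 mice per group and do not say whether an array holds 1 mouse or a pool, so p-values measure only the spread between these samples, which may be technical.

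CC chemokines are small secreted proteins that guide leukocytes through G protein-coupled receptors. Ccr2 is the receptor through which classical monocytes leave the bone marrow and enter inflamed tissue, and Ccl2, Ccl7 and Ccl12 are among its ligands. Ccl3, Ccl6 and Ccl9 act on Ccr1, which is carried by monocytes and neutrophils. Macrophages that sense microbial walls are a main source of these ligands in the peritoneum, and the genes of the ligands lie in a pair of clusters on chromosome 11.

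The wt libraries stood apart in pairs, and in wt replicate 1 neither Card9 probe was well above background. Between 47.8% and 56.5% of 59305 non-control spots per array were well above background and 0 were saturated. Over the 18605 genes tested, wt replicates 1 and 2 correlated at 0.985 with each other and at 0.822 to 0.895 with wt replicates 3 and 4. The brighter Card9 probe exceeded background clearly on 3 wt arrays and 0 Card9-/- arrays; the library labelled wt replicate 1 gave a processed signal of 4.75, within the range of 3.60 to 11.9 in Card9-/-. Y-linked Ddx3y, Eif2s3y, Uty and Kdm5d each had a probe well above background on 4 Card9-/- and 0 wt arrays. Another Kdm5d probe was so on 4 wt and 3 Card9-/- arrays, and a further probe each of Ddx3y and Uty on 0 arrays. Xist was so on 4 wt and 0 Card9-/- arrays, so genotype and sex cannot be told apart. Of 15 general macrophage markers, wt replicate 1 had 11 well above background, wt replicate 2 had 10, wt replicates 3 and 4 had 15, and the Card9-/- libraries had 12 to 14. Of the 15, 10 were so on every array, Adgre1, Cd68, Csf1r and Lyz2 among them. Mertk was so on 2 wt and 0 Card9-/- arrays. Lymphocyte markers were widely detected too. All 13 B cell markers were well above background on every array. Of 13 natural killer markers 12 or 13 were so per array, and of 18 T cell markers 15 to 18. Slide 1 held the 4 wt arrays together with Card9-/- replicate 4, slide 2 held Card9-/- replicates 1 and 3, and slide 3 held replicate 2.

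A level is the log2 processed signal of a probe minus the 75th percentile of its array, and 1 unit is a factor of 2. Levels of different genes are not comparable. The number of arrays limits the precision. A probe was tested if 3 or more of the 4 arrays of either genotype held it well above background, which 9 of the 10 genes passed, on all 8 arrays each; Ccr1 did not pass. In bulk RNA, fewer cells of a type and less RNA per cell cannot be told apart.

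The comparison of genotypes asks whether levels of these genes after zymosan differed without Card9. None of the 9 tested genes differed beyond the spread between arrays. In limma, 0 passed an adjusted p of 0.05, with adjusted p of 0.774 to 0.997, and 0 had an unadjusted p under 0.05. The background was 0.0269% of all genes tested at the adjusted threshold (5 genes) and 7.23% at the unadjusted one. The 5 were Y-linked Ddx3y, Eif2s3y and Uty, an entry named XIST that is separate from the Xist entry above, and the transcript BX528370. Of the 9, 4 were higher and 5 lower in Card9-/-, against 43.7% and 56.3% of all genes, with a median difference of -0.056, against -0.088 over all genes tested. With quantile normalization Ccl2 (0.11), Ccl7 (0.18) and Ccl3 (0.0071) turned higher and Ccl12 (-0.077) turned lower. No gene of the 9 differed by 2-fold or more, which 15.3% of all genes did. The groups overlapped for all 9, where they did not overlap for 5.22% of all genes.

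**Figure D1:**
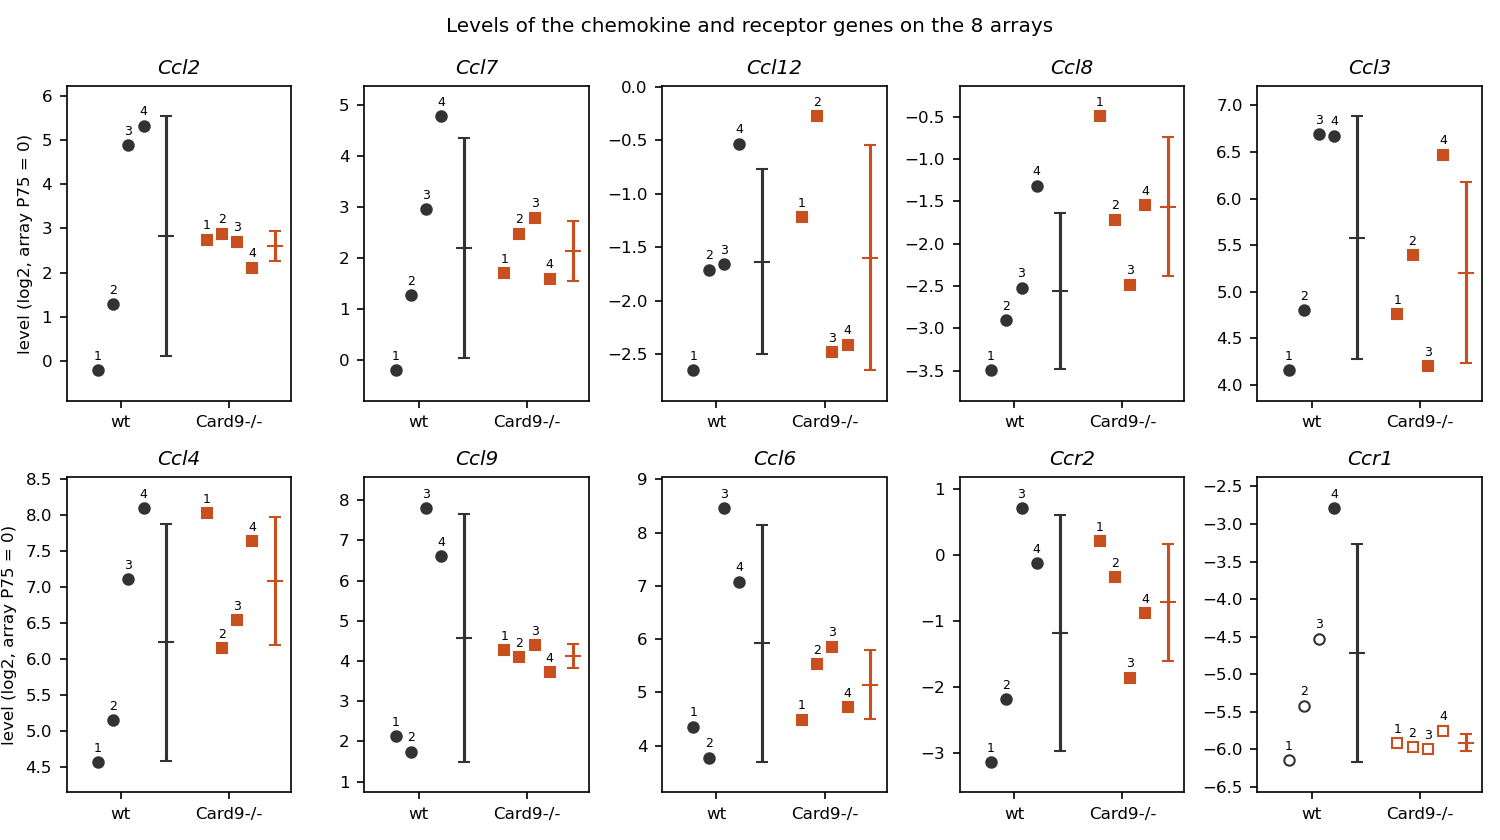
Level of each gene (vertical axis, log2 units, 0 being the array's 75th percentile, with a scale of its own in each panel) on the 4 wt arrays (circles) and the 4 Card9-/- arrays (squares), numbered by replicate; open symbols are not well above background and the bars are the mean ± SD (n = 4). In Ccl2 and Ccl9 the 4 Card9-/- arrays lie close together, between a low and a high pair of wt arrays, and Ccr1 is well above background on wt replicate 4 alone.

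Ccl2 and Ccl7 are neighbouring genes whose products are ligands of Ccr2, and Ccl2 is the leading attractant of classical monocytes. The Ccl2 probe (chromosome 11, 81850650 to 81850709, mm9) stood at levels of -0.22, 1.29, 4.88 and 5.33 in wt replicates 1 to 4. The Card9-/- libraries, in the same order, stood at 2.75, 2.88, 2.70 and 2.11. All 4 Card9-/- arrays thus lay in the gap between wt replicates 2 and 3. The wt libraries spanned a 46.7-fold range of signal and the Card9-/- libraries a 1.70-fold range. Means were 2.82 ± 2.72 in wt and 2.61 ± 0.34 in Card9-/- (SD, n = 4 each), a difference of -0.21 (SE 1.13, 95% interval -2.76 to 2.33; limma adjusted p = 0.986; exact two-sided permutation p = 0.914 over 70 assignments). That interval runs from 0.148-fold to 5.04-fold.

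Ccl7 (probe at chromosome 11, 81860656 to 81860715) had levels of -0.21, 1.26, 2.95 and 4.77 in the wt libraries, replicates 1 to 4, and of 1.70, 2.47, 2.79 and 1.59 in the Card9-/- libraries in the same order. Again every Card9-/- array fell between wt replicates 2 and 3, with group means of 2.19 ± 2.15 and 2.14 ± 0.59 (SD, n = 4 each). The difference was -0.056 (SE 0.94, 95% interval -2.16 to 2.05; limma adjusted p = 0.997).

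The Ccl12 and Ccl8 genes follow in the same cluster. Ccl12 is a further Ccr2 ligand of the mouse, and Ccl8 a related CC chemokine. Their probes share a run of 13 of 60 bases, the longest between probes of different genes here, so it is shown; RNA of 1 gene binding the probe of the other was not tested.
Probe run shared by Ccl12 and Ccl8: CCTTGAACCTTCA
The promoters of both genes hold the TATA box letters TATAAA shortly before the start site, on the strand of the gene. Anywhere in the 300 bases and on either strand, 13.6% of 32851 promoters hold these letters. The share that holds them at this place and strand was not counted. RefSeq's table (GRCm38.p6) gives promoters for 7 of the 10 genes, and those of this neighbouring pair are shown from 250 bases before to 50 after the start, 5′ to 3′ on the gene's strand, with TATAAA in capitals, at bases -31 to -26 in Ccl12 (chromosome 11, 82101595 to 82101894, plus strand) and -32 to -27 in Ccl8 (82114935 to 82115234, plus strand).
Ccl12: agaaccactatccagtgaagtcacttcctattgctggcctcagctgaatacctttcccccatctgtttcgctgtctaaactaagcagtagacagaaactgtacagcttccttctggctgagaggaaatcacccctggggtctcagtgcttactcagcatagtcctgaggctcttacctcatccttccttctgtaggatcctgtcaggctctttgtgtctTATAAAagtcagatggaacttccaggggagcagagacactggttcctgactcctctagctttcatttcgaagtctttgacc
Ccl8: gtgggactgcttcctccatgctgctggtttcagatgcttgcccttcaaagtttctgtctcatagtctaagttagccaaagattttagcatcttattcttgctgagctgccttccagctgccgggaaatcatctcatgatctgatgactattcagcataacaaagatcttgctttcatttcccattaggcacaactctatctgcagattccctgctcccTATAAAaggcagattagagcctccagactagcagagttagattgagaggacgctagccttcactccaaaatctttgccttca

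Ccl12 (probe at 81916710 to 81916769, mm9) had levels of -2.65, -1.71, -1.66 and -0.53 in the wt libraries, replicates 1 to 4, and of -1.22, -0.28, -2.49 and -2.41 in the Card9-/- libraries in the same order. It was 1 of 2 tested genes in which a Card9-/- array, here replicate 2, lay above every wt array. The means were -1.64 ± 0.87 and -1.60 ± 1.06 (SD, n = 4 each), and the difference of 0.040 (SE 0.62, 95% interval -1.35 to 1.43) gave a limma adjusted p of 0.997. Its sign turned with median scaling (-0.14) and quantile normalization (-0.077).

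Ccl8 (81930108 to 81930167, mm9) had the largest difference of the 9 genes. Its levels were -3.50, -2.91, -2.52 and -1.31 in the wt libraries, replicates 1 to 4, and -0.50, -1.72, -2.49 and -1.54 in the Card9-/- libraries in the same order. Card9-/- replicate 1 lay above all wt arrays, and the other three lay within the wt range. Means of -2.56 ± 0.92 in wt and -1.56 ± 0.82 in Card9-/- (SD, n = 4 each) gave a difference of 1.00 (SE 0.57, 95% interval -0.29 to 2.29; limma adjusted p = 0.774; exact two-sided permutation p = 0.171, where 0.0286 is the smallest that the design allows). With normexp background correction the difference was 0.68. It kept its positive sign under all 24 alternatives, of which the slide block and within slide 1 gave the same value (1.02). Leaving these aside, Ccl8 did not pass the threshold in any (limma adjusted p of 0.0726 to 0.958). The gene was dim, 1.00 to 3.14 above the lowest level well above background on each array. That lowest level was -4.84 to -4.31 on wt and -4.17 to -3.47 on Card9-/- arrays, and its part in the difference was not tested.

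Ccl3 and Ccl4 encode macrophage inflammatory proteins. Ccl3 (probe at chromosome 11, 83461358 to 83461417, mm9, minus strand) stood at levels of 4.16, 4.80, 6.69 and 6.67 in wt replicates 1 to 4. The Card9-/- libraries, in the same order, stood at 4.76, 5.39, 4.2 and 6.47, all within the wt range, and Card9-/- replicate 4 was close to the high wt pair. The means were 5.58 ± 1.30 and 5.21 ± 0.97 (SD, n = 4 each), a difference of -0.38 (SE 0.71, 95% interval -1.97 to 1.22; limma adjusted p = 0.945).

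Ccl4 was read by 2 probes that overlap by 46 of 60 bases and so are no independent measures. The brighter (83478052 to 83478111, mm9, plus strand) had levels of 4.57, 5.15, 7.11 and 8.10 in the wt libraries, replicates 1 to 4, and of 8.03, 6.15, 6.54 and 7.64 in the Card9-/- libraries in the same order. Here the Card9-/- arrays all lay above wt replicates 1 and 2 and below wt replicate 4. Means were 6.23 ± 1.65 and 7.09 ± 0.89 (SD, n = 4 each), with a difference of 0.86 (SE 0.80, 95% interval -0.95 to 2.67; limma adjusted p = 0.867; exact permutation p = 0.400). The other probe (83478038 to 83478097) differed by 0.71 (exact permutation p = 0.457). T cells and natural killer cells also make Ccl3 and Ccl4. Markers of both were higher in Card9-/-, in 18 of 18 and 12 of 12 measured genes, and 0 of them passed over all genes (13 and 11 at an unadjusted p under 0.05 in limma). Over all genes tested, 43.7% were higher and 7.23% had an unadjusted p under 0.05 (limma). The mean level of the natural killer list was -1.13, -0.21, -0.71 and -0.60 in wt replicates 1 to 4. In Card9-/- it was 2.72, 1.46, 0.30 and 1.21 in the same order. That of the T cell list was 0.46, 0.85, 0.18 and 0.23 in wt and 2.30, 1.90, 1.36 and 1.54 in Card9-/-. The part of either cell type in the levels of Ccl3 and Ccl4 was not tested.

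Ccl9 and Ccl6, adjoining genes of the rodent, encode Ccr1 ligands made by macrophages and other myeloid cells. Their promoters lie on the minus strand (83578587 to 83578886 for Ccl9 and 83593038 to 83593337 for Ccl6, GRCm38.p6). They share a run of 13 bases, the longest between any promoters of the 7 genes, and are shown for that reason. The shared run is in capitals, and its part in the levels of the genes was not tested.
Ccl9: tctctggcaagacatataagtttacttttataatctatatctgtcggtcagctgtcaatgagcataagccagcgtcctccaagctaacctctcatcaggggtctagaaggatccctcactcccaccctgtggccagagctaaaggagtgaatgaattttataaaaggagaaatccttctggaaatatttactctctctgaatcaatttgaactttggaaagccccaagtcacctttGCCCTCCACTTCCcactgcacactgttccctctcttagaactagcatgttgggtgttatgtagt
Ccl6: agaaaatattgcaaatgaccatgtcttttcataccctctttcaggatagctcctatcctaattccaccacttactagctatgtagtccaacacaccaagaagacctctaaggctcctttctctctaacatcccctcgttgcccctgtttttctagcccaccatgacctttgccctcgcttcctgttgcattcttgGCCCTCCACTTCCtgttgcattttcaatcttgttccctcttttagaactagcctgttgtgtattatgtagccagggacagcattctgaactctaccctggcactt

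Ccl9 had the widest wt spread of all 9. Its probe (83388223 to 83388282, mm9, minus strand) stood at levels of 2.14, 1.75, 7.80 and 6.60 in the wt libraries, replicates 1 to 4, and of 4.27, 4.10, 4.40 and 3.72 in the Card9-/- libraries in the same order. The wt libraries spanned 66.6-fold and the Card9-/- libraries 1.60-fold, with every Card9-/- array in the gap between the wt pairs. Means were 4.57 ± 3.08 and 4.12 ± 0.29 (SD, n = 4 each). The difference of -0.45 had an SE of 1.27 and a 95% interval of -3.31 to 2.41 (limma adjusted p = 0.967; exact permutation p = 0.743).

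Ccl6 (83401997 to 83402056, mm9, minus strand) stood at levels of 4.36, 3.78, 8.46 and 7.08 in the wt libraries, replicates 1 to 4, and of 4.49, 5.53, 5.86 and 4.72 in the Card9-/- libraries in the same order. The 4 Card9-/- arrays again lay between the wt pairs. Means of 5.92 ± 2.22 and 5.15 ± 0.65 (SD, n = 4 each) differed by -0.77 (SE 0.97, 95% interval -2.95 to 1.41; limma adjusted p = 0.905).

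Ccr2, the receptor of the monocytes that these ligands draw, was read at chromosome 9, 124022948 to 124023007 (mm9). Its levels were -3.14, -2.19, 0.71 and -0.13 in the wt libraries, replicates 1 to 4, and 0.21, -0.34, -1.86 and -0.89 in the Card9-/- libraries in the same order. The Card9-/- arrays lay within the wt range, and wt replicates 1 and 2 below all of them. Means of -1.19 ± 1.78 in wt and -0.72 ± 0.88 in Card9-/- (SD, n = 4 each) gave a difference of 0.46 (SE 0.85, 95% interval -1.44 to 2.37; limma adjusted p = 0.942). Classical and patrolling monocyte markers had mean levels of 1.62 to 3.34 on wt arrays, lowest in wt replicates 1 and 2, and of 2.44 to 3.02 on Card9-/- arrays.

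Ccr1 (chromosome 9, 123877790 to 123877849, mm9) was well above background on 1 of 4 wt arrays, replicate 4, and on 0 of 4 Card9-/- arrays. Its measured levels were -6.15, -5.42, -4.53 and -2.79 in the wt libraries, replicates 1 to 4, and -5.92, -5.97, -6.00 and -5.75 in the Card9-/- libraries in the same order, so that all but wt replicate 4 lie where the array gives no more than an upper limit. No fold is given, because the wt mean of -4.72 lay below the limit of detection of the Card9-/- arrays, -3.74 on average.

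Both of wt replicates 3 and 4 lay above both of wt replicates 1 and 2 in 9 of 9 tested genes, against 32.6% of all genes tested. The gap between wt replicates 1 and 2 on one side and 3 and 4 on the other was 4.47 in Ccl9 and 3.60 in Ccl2, and no more than 0.39 in Ccl8 and 0.053 in Ccl12, where the wt levels form no pairs. The wt SD was larger than the Card9-/- SD in 8 of 9, Ccl12 being the exception, and at least 2 times as large in 5 (Ccl2, Ccl7, Ccl9, Ccl6 and Ccr2), against 53.9% and 23.5% of all genes. The ratio of the SDs was 10.5 for Ccl9 and 7.96 for Ccl2. All 4 Card9-/- arrays lay within the wt range in 7 of 9 genes, against 25.2% of all genes. The median wt SD of the 9 was 1.78, and that of all genes 0.676; in Card9-/- the medians were 0.819 and 0.594. These genes share their libraries, so the counts describe 4 wt samples and are no test over genes.

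**Figure D2:**
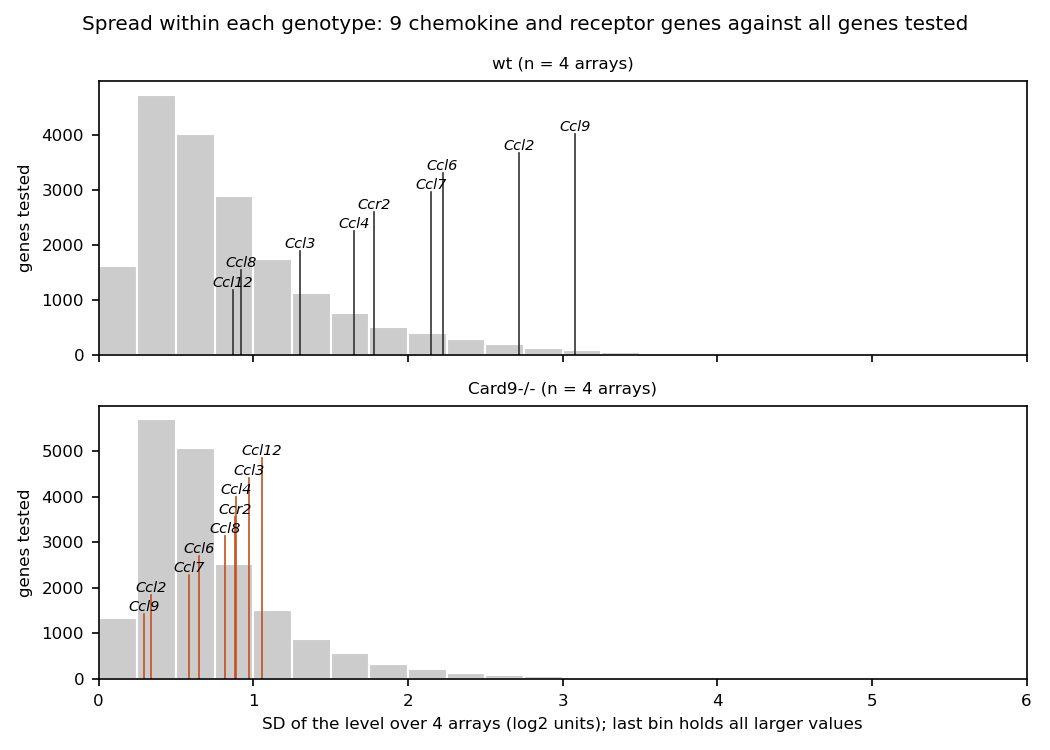
Number of genes tested (vertical axis, of 18605) by the SD of their level over the 4 arrays of a genotype (horizontal axis, log2 units, grey bars of 0.25), with a line for each of the 9 tested genes. In wt the lines reach 3.08 (Ccl9), while in Card9-/- they end at 1.06 (Ccl12).

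When 1 array was left out in turn, 6 of the 9 differences changed sign at least once (Ccl2, Ccl7, Ccl12, Ccl9, Ccl6 and Ccr2). Without the library labelled wt replicate 1, Ccl2 differed by -1.22 and Ccr2 by -0.19, and without wt replicate 4 Ccl2 differed by 0.63 and Ccl7 by 0.80. Without wt replicate 3, Ccl9 differed by 0.63 and Ccl6 by 0.075. Leaving out any 1 of the 8 arrays, 0 of the 9 genes passed (limma adjusted p of 0.715 to 1.00). Without both of wt replicates 3 and 4, an alternative chosen after seeing the data, all 9 genes were higher in Card9-/-, by 0.58 (Ccl12) to 2.23 (Ccl4). Without both of wt replicates 1 and 2, chosen likewise, 8 of 9 were lower, with differences of -2.50 in Ccl2 and -3.08 in Ccl9, and Ccl8 was higher by 0.36. The libraries left out are the low or the high ones in these same genes, so the choice moves each difference in a known direction, and these values are a description with no test. Within slide 1, which sets the 4 wt arrays against Card9-/- replicate 4 alone, the differences were -0.71 for Ccl2, -0.61 for Ccl7, -0.78 for Ccl12, 1.02 for Ccl8, 0.89 for Ccl3, 1.41 for Ccl4, -0.85 for Ccl9, -1.20 for Ccl6 and 0.30 for Ccr2. With 1 Card9-/- array, whose spread is unknown, these are values without a test.

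**Figure D3:**
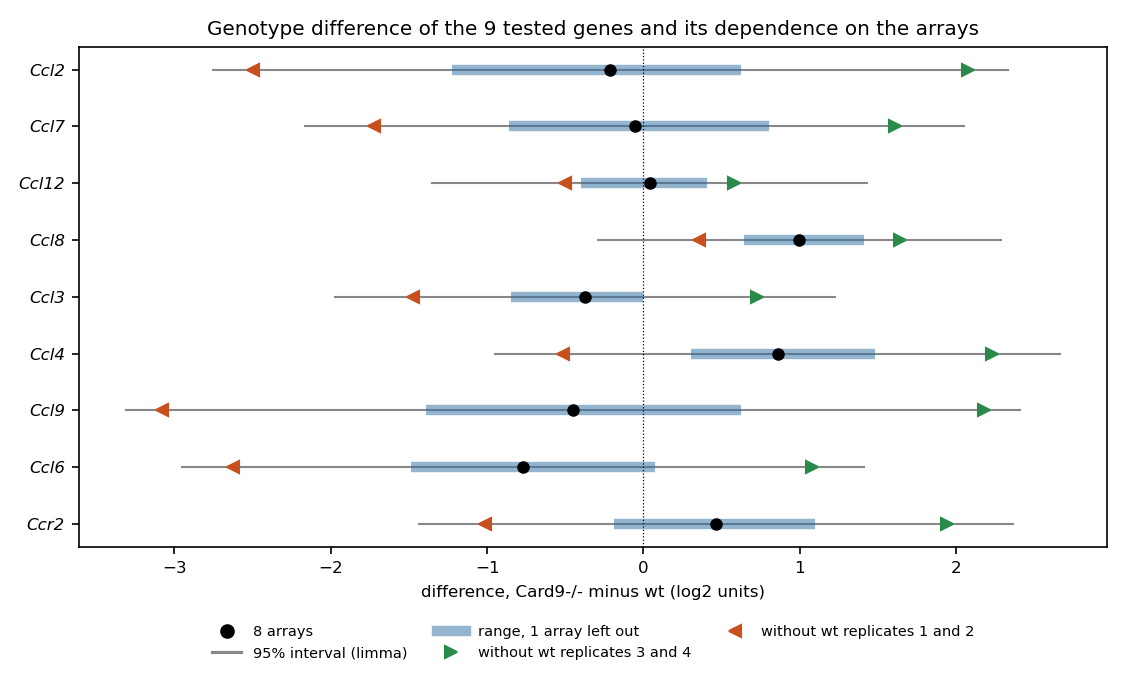
Difference of each tested gene, Card9-/- minus wt (horizontal axis, log2 units), with all 8 arrays (black points, with the 95% interval from limma as grey lines), the range when 1 array is left out (blue bars), and the value without wt replicates 3 and 4 (green) or without wt replicates 1 and 2 (orange). Each interval holds 0, and in Ccl2 the green and orange values are 2.07 and -2.50.

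Macrophage markers followed the same split of the wt libraries. Of 15 macrophage markers 14 were tested, 12 lower and 2 higher in Card9-/-, where 56.3% of all genes tested were lower. The median difference of the markers was -1.16, and 0 of them passed the threshold. In wt replicates 1 to 4 their mean level was -1.25, -0.85, 5.57 and 4.04, against 0.68 to 1.09 in Card9-/-. For the resident peritoneal macrophage list (14 of 15 tested, all lower, 0 past the threshold) it was -1.44, -1.07, 5.81 and 3.63 in wt and -0.75 to 0.96 in Card9-/-. The part of macrophage content in the levels of the chemokines was not tested. Neutrophil markers (15 of 16 tested, 8 higher and 7 lower) had mean levels of 0.92 to 3.54 in wt, highest in replicate 4, and of 0.10 to 3.28 in Card9-/-. The split was not particular to macrophage markers. Mast cell and eosinophil markers averaged 0.086, 0.42, 2.94 and 2.86 in wt replicates 1 to 4. Dendritic cell markers averaged -0.12, 0.033, 1.20 and 1.14, and those of fibroblasts and mesothelium -2.45, -1.71, 0.58 and -0.74, in the same order. In Card9-/- these lists ran from -0.35 to 2.53, from 0.72 to 1.53 and from -1.63 to -0.039. B cell and red cell markers lacked the split. Means for B cells ran from 2.17 to 3.32 in wt and 2.94 to 3.75 in Card9-/-. For red cells they ran from 0.40 to 4.11 and from 3.11 to 6.98.

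The likeness of the genes to each other over the 8 arrays was measured as the root mean square difference of levels after each gene was centred on its own mean, among 10558 genes with a symbol that were well above background on all arrays. Ccl2 and Ccl7 lay 0.63 log2 units apart, which made Ccl7 the 43rd nearest gene to Ccl2 and Ccl2 the 39th nearest to Ccl7. Ccl9 and Ccl6 lay 0.68 apart, at place 100 for Ccl9 and 230 for Ccl6, and Ccl2 and Ccl9 lay 0.70 apart. Ccl4 was nearest, among the 10 genes, to Ccl8 (0.64, place 36) and Ccr2 (0.77, place 140), and not to its cluster neighbour Ccl3 (0.98, place 933). Ccl12 lay nearest to Ccl8 among them, at 0.81 and place 2556, so its pattern was closer to many other genes than to any of these.

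**Figure D4:**
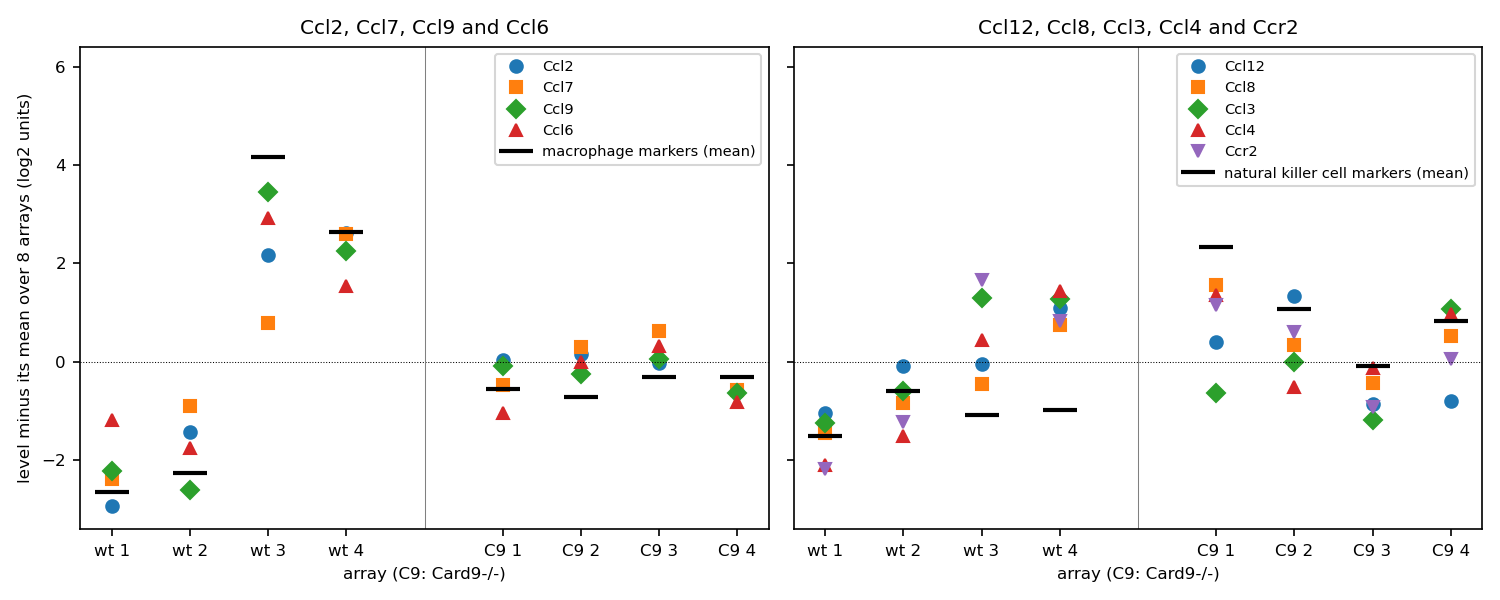
Level of each gene minus its mean over the 8 arrays (vertical axis, log2 units) for the 4 wt and 4 Card9-/- arrays (C9, horizontal axis), with the mean of the macrophage markers (left) or natural killer cell markers (right) as black bars. On the left wt replicates 3 and 4 are above and wt replicates 1 and 2 below the mean for all 4 genes. On the right wt replicates 1 and 2 are below the mean of each gene, for Ccl12 in replicate 2 only just, and Card9-/- arrays spread widely. The natural killer markers are below their mean on all 4 wt arrays.

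Outside the list, the nearest gene to Ccl2 was Mrc1, the mannose receptor of macrophages, at 0.31, followed by Enpp4 at 0.38. Nearest to Ccl9 were Myof (0.20) and the glucose transporter family gene Slc2a6 (0.25), and to Ccl6 Ltbp3 (0.24) and Sirpa, an inhibitory receptor of myeloid cells (0.31). Ccl7 ran closest to Pdpn (0.41) and the interferon-inducible chemokine Cxcl10 (0.43). For Ccl8 these were the proliferation marker Mki67 and the natural killer receptor Klra9 (0.27 each), for Ccl4 Cdkn3 (0.43) and Igf1r (0.44), for Ccl3 Csrp2 (0.35) and Polm (0.38), for Ccl12 Pts (0.36) and Ppp1r14c (0.42), and for Ccr2 Cd1d1 (0.36) and Sh3bp4 (0.42). These distances were picked as the smallest of 10558 over 8 arrays and carry no test.

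Other genes of the chemokine system were read from the same fit, and 0 of them passed over all genes. Over all genes tested, 43.7% were higher and 7.23% had an unadjusted p under 0.05 (limma). Of 12 other CC chemokines 6 were tested, 3 higher and 3 lower, with 0 at an unadjusted p under 0.05 (limma). The smallest p-values belonged to the Ccr4 ligand Ccl17 (1.48, SE 0.75, adjusted p = 0.736), the Ccr8 ligand Ccl1 (2.48, SE 1.39, adjusted p = 0.766), well above background on 2 wt and 3 Card9-/- arrays, and Ccl25 (-0.86, SE 0.60, adjusted p = 0.827). Of 12 other CC and atypical receptors 8 were tested, 5 higher and 3 lower, 0 at an unadjusted p under 0.05, led by the eosinophil receptor Ccr3 (-1.76, SE 0.79, adjusted p = 0.692), the atypical receptor Ackr1 (1.01, SE 0.66, adjusted p = 0.811) and Ccr6 (0.65, SE 0.48, adjusted p = 0.834).

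Of 22 genes that signal below CC receptors all were tested, 11 higher and 11 lower (43.7% and 56.3% of all genes tested). At an unadjusted p under 0.05 (limma), which 7.23% of all genes had, 1 was higher and 2 were lower. These were Dock2, the exchange factor for Rac in migrating leukocytes (1.39, SE 0.39, adjusted p = 0.532), Gnai2, the inhibitory G protein subunit that chemokine receptors couple to (-1.85, SE 0.61, adjusted p = 0.566), and the phospholipase Plcb3 (-1.18, SE 0.47, adjusted p = 0.627). Dock2 levels were 1.67 to 2.68 in wt and 3.16 to 4.32 in Card9-/- libraries, and Gnai2 levels 4.59 to 6.65 and 2.58 to 4.48. Both separated the genotypes without overlap, as 5.22% of all genes did.

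Among 15 monocyte markers, all tested, 10 were higher and 5 lower (43.7% and 56.3% of all genes tested). At an unadjusted p under 0.05 (limma), which 7.23% of all genes had, there was 1. That was Cx3cr1, the fractalkine receptor of patrolling monocytes (1.97, SE 0.57, adjusted p = 0.532), at levels of -5.70 to -2.80 in wt and -2.62 to -1.84 in Card9-/- libraries, and well above background on 3 wt and 4 Card9-/- arrays. The integrin chain Itgam (-1.32, adjusted p = 0.737) and Spn (0.54, adjusted p = 0.827) came next. Of 20 NF-kB inflammatory targets, 7 were higher and 13 lower, 1 and 2 of them at an unadjusted p under 0.05, beside the same shares over all genes. Il12b, the shared chain of interleukins 12 and 23, differed by 3.20 (SE 0.97, adjusted p = 0.552), Nfkb2 by -1.31 (SE 0.49, adjusted p = 0.612) and the adhesion molecule Icam1 by -1.33 (SE 0.52, adjusted p = 0.627). The NF-kB list averaged levels of 2.16, 2.58, 4.53 and 4.51 over wt replicates 1 to 4, and of 2.90 to 3.42 in Card9-/-, the split of wt libraries seen in the chemokines. Of 16 interferon-stimulated genes 15 were tested, 7 higher and 8 lower, 0 at an unadjusted p under 0.05, led by Oas2 (-0.78, adjusted p = 0.786), Cxcl9 (1.63, adjusted p = 0.827) and Isg15 (-0.66, adjusted p = 0.827). Over wt replicates 1 to 4 they averaged levels of 2.61, 2.86, 2.41 and 5.64, and 3.25 to 3.46 in Card9-/-, so that wt replicate 4 alone was high.

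Motifs were searched in the 7 promoters on both strands. The NF-kB and interferon response motifs were patterns of 10 letters, some of which may be any base. The NF-kB pattern matched in 2 of 7 (Ccl9 and Ccr1), against 50.8% of all promoters. A match to so common a pattern does not show an NF-kB site. Bases outside these 300 were not searched, so genes without a match may still have such a site. TGANTCA, the AP-1 letters, matched in 1 of 7 (Ccl9), against 7.81%, and the interferon response motif in 0 of 7, against 3.44%. TATAAA matched in 3 of 7 (Ccl12, Ccl8 and Ccl9). Ccl2, Ccl7 and Ccl4 have no entry in that table.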

How the data were processed

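Each one-colour array has a deposited file of intensity values. Per the file headers, Feature Extraction (Agilent, 10.7.1.1) subtracted background and detrended them; no scaling across arrays was applied. Log2 values, made by steps that no source used here states, stand in a series matrix of the authors (column medians of 4.48). Its last 7075 of 56745 rows stand beside the wrong probe name. All 8 columns match best a scanner file of their own genotype, but only 2 of 8 that of their own replicate. Its scaling and centring are not stated, and it served only as an alternative, with the aligned rows. From each log2 processed signal, the 75th percentile of that array's non-control spots was subtracted. Control and outlier spots (63 to 213 per array) were left out, repeated spots averaged, and the brightest probe over all arrays stood for a gene. Genes were named by accession (32989 probes), symbol (10228) or synonym (519) in the GRCm38.p6 table, otherwise by the files (12869). Genotypes were compared over all 8 arrays with limma 3.58.1 in R 4.3.3 (two-sided, Benjamini-Hochberg over 18605 genes). The fit was tested on simulated data. The genes and lists were chosen with earlier results of these data known. Named were all 10 genes and the 3 smallest p-values per pathway list. Alternatives were other scaling, background, filters, probes and blocks, the series matrix, and arrays left out. Card9 probes may lie outside the deleted part.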

Additional observations from a re-analysis of the deposited data

Results flagged for a closer look

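In 1 of 58 groups of 4 arrays examined, a library lay far from the other three. Oas2, an interferon-induced antiviral enzyme, had a level of 6.28 in wt replicate 4 and of 4.67 in the nearest wt library, so that the gap took 0.839 of the whole range (critical value 0.829). Chance alone gives such a gap in about 1 of 20 groups.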

How the results depend on the processing

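Of the 9 chemokine and receptor genes tested, Ccl8 alone kept its sign under all 24 alternatives. The count of 5 genes past the threshold became 1171 with array weights, whose estimation stopped before it converged. It was 3 with the replicate block and 430 without wt replicates 1 and 2. With slide as a blocking term and within slide 1 the difference rests on 1 Card9-/- array, so no count is given for them. The wt pairs left out were chosen after their levels were seen. None of these alternatives carries a test of genotype. Leaving the slide block and slide 1 aside, 0 of the 10 genes passed in each alternative except without wt replicates 1 and 2, where 2 did (Ccl2 and Ccl9). Of the other list genes, 9 passed with array weights and 3 (Il1a, Nfkb2 and Sod2) without wt replicates 1 and 2. Signs turned, on the log2 scale, for Ccl12 with median scaling (-0.14), quantile normalization (-0.077), the series matrix (-0.066), slide block and within slide 1 (-0.78), the slide as a random block (-0.0093), wt replicates 1 and 2 averaged (-0.14) and without wt replicates 1 and 2 (-0.50). For quantile normalization and the series matrix, Ccl2 was 0.11 and 0.096, Ccl7 0.18 and 0.17, and Ccl3 0.0071 with the former. With array weights Ccl2 was 1.63, Ccl7 1.33, Ccl3 0.28, Ccl9 2.15 and Ccl6 1.38. With the slide block and within slide 1, Ccl3 was 0.89 and Ccr6 -0.18. Ccr2 was -0.027 with wt replicates 1 and 2 averaged. Without wt replicates 3 and 4, Ccl2 was 2.07, Ccl7 1.61, Ccl3 0.73, Ccl9 2.18 and Ccl6 1.08. Without wt replicates 1 and 2, Ccl4 was -0.51 and Ccr2 -1.01. Leaving out 1 array gave -1.22 to 0.63 for Ccl2, -0.86 to 0.80 for Ccl7, -0.40 to 0.41 for Ccl12, -1.39 to 0.63 for Ccl9, -1.49 to 0.075 for Ccl6 and -0.19 to 1.1 for Ccr2. Other than by the arrays left out, the cause was not tested. Deviations of same-numbered arrays of both genotypes correlated at 0.25 for number 2 and at -0.28 to -0.12 for the others over genes. Only for number 2 was each array the best match of the other. These deviations hold the split of the wt libraries, so they cannot settle whether the numbers pair samples. With the replicate block no call among the 9 genes changed. With normexp, the differences of Ccl8, Ccl12 and Ccr2 were 0.68, 0.29 and 0.33. Signal over background left Ccr1 untested.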
